A study of Mus musculus with 6 samples.

Results

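The *Cyp2c* P450 family was examined in liver RNA-seq of 3 WT and 3 *Sirt7* KO mice. The 10 members are *Cyp2c29*, *Cyp2c37*, *Cyp2c38*, *Cyp2c39*, *Cyp2c40*, *Cyp2c44*, *Cyp2c50*, *Cyp2c54*, *Cyp2c55* and *Cyp2c70*. They were chosen by name, with earlier results of these data known. They make up 10 of the 18 *Cyp2c* genes among the 54115 genes of the table. Both genotypes were male, 24 months old and fasted for 16 h before the liver was taken. The KO line lacks the histone deacylase SIRT7 in the whole body. It came from a mixed C57BL/6 and 129Sv background, was bred back to C57BL/6J for several generations, and WT and KO animals were littermates from crosses of heterozygotes. Each library was made from 1 ng of total RNA of 1 liver with the SMART-seq HT and Nextera XT kits, and the labels give the livers as separate biological replicates. In bulk tissue such as this, fewer cells of a type and less RNA per cell cannot be told apart.

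Cytochromes P450 of the CYP2C subfamily sit in the endoplasmic reticulum membrane and insert an oxygen atom into lipids and drugs. They take electrons from P450 oxidoreductase (*Por*), with cytochrome b5 as a further donor for some reactions, and hold a heme that is bound through a cysteine. In mouse liver the family is known for turning arachidonic acid into epoxides and hydroxylated acids, for clearing drugs, and, through *Cyp2c70*, for making the muricholic acids that set mouse bile apart from human bile. Several members are known targets of the nuclear receptors CAR (*Nr1i3*), PXR (*Nr1i2*) and HNF4A, and some differ between male and female liver.

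The mouse genes arose by duplication and remain so alike that the assignment of short reads bears on the values of most of them. The coding bases around the codon of the heme-binding cysteine, which is capitalised, are shown for the 3 close relatives *Cyp2c38*, *Cyp2c39* and *Cyp2c29*, for the trio *Cyp2c37*, *Cyp2c50* and *Cyp2c54*, and for the more distant *Cyp2c70*. Each stretch of 60 bases was read 5′ to 3′ from the GRCm38 reference transcript and is spliced across exons 8 and 9, so that the coordinates span the intron between them.
Cyp2c38 (chr19:39391069-39392164, minus strand): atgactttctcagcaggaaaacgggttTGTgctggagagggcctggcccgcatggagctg
Cyp2c39 (chr19:39567013-39568056, plus strand): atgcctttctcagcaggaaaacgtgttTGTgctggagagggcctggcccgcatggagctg
Cyp2c29 (chr19:39329230-39330295, plus strand): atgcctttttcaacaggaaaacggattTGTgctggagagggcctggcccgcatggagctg
Cyp2c37 (chr19:40009941-40011770, plus strand): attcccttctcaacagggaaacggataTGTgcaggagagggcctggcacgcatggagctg
Cyp2c50 (chr19:40111402-40113477, plus strand): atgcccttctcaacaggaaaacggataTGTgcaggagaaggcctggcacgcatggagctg
Cyp2c54 (chr19:40038375-40040207, minus strand): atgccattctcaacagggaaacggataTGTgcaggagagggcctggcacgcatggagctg
Cyp2c70 (chr19:40153714-40156738, minus strand): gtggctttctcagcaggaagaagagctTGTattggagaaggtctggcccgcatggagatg

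In this stretch *Cyp2c38* and *Cyp2c39* differed at 2 of 60 bases, *Cyp2c37* and *Cyp2c54* at 2, and *Cyp2c37* and *Cyp2c50* at 3. *Cyp2c70* differed from *Cyp2c38* at 11 bases and from *Cyp2c37* at 19. Over the whole coding sequence the identity was 96.1% between *Cyp2c37* and *Cyp2c50*, 95.1% between *Cyp2c37* and *Cyp2c54*, 94.2% between *Cyp2c38* and *Cyp2c39*, and 89.1% between *Cyp2c29* and *Cyp2c38*. *Cyp2c70* shared 68.9% with *Cyp2c38*, and its highest identity with any *Cyp2c* gene was 69.8%, with *Cyp2c55*. As a measure of what a read can tell apart, all words of 31 bases in the transcripts of each gene were looked up in every other gene. None of the words of *Cyp2c44* or *Cyp2c70* occurred in another gene, whereas 72.6% of the words of *Cyp2c40*, 47.4% of *Cyp2c37*, 42.3% of *Cyp2c54*, 29.2% of *Cyp2c50*, 26.5% of *Cyp2c39*, 16.2% of *Cyp2c38*, 9.36% of *Cyp2c29* and 2.90% of *Cyp2c55* were shared with another *Cyp2c* gene.

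The promoters of the 2 members with the smallest p-values in the genotype comparison, *Cyp2c38* and *Cyp2c70*, are shown from 250 bases before to 50 bases after the start of the gene in the RefSeq annotation of GRCm38.p6. Capitals mark matches to motifs searched on both strands.
Cyp2c38 (chr19:39463026-39463325, minus strand): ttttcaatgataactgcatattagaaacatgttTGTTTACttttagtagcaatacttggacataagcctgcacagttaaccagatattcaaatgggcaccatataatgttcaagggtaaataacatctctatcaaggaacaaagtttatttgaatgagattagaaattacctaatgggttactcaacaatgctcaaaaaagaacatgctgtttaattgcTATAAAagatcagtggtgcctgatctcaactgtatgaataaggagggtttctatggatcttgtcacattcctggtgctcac
Cyp2c70 (chr19:40187237-40187536, minus strand): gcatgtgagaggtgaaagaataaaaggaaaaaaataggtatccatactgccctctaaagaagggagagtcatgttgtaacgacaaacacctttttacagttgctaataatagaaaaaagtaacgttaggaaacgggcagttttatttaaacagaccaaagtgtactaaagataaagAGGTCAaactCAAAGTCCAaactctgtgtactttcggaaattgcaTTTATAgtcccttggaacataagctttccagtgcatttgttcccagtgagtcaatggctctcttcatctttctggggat

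The *Cyp2c38* promoter held the forkhead motif TGTTTAC at -217 and TATAAA at -31 from the start of the gene. The *Cyp2c70* promoter held the nuclear receptor half-site AGGTCA at -74, the HNF4 motif CAAAGTCCA at -64, and TATAAA on the reverse strand at -29, which reads TTTATA on the strand printed. Among 32851 RefSeq promoters of the same length, TGTTTAC was found in 3.65%, AGGTCA in 16.3%, CAAAGTCCA in 0.475% and TATAAA in 13.6%. Of the 14 *Cyp2c* promoters in the table, which cover 8 of the 10 members, 3 held TGTTTAC, 3 held AGGTCA, 6 held CAAAGTCCA and 10 held TATAAA. *Cyp2c39* is entered at different starts, each with TGTTTAC. The promoters are also related copies, up to 91.1% identical for *Cyp2c68* and *Cyp2c69*, so these counts are not independent. The 6 promoters with CAAAGTCCA belong to *Cyp2c40*, *Cyp2c65*, *Cyp2c67*, *Cyp2c68*, *Cyp2c69* and *Cyp2c70*. None of the 14 held TTATGTAA (0.938% of all promoters), CACGTG (7.15%), TTGCGCAA (0.183%), the STAT5 motif TTCNNNGAA (8.3%), the full HNF1 motif (0.00913%), or the half-site repeats known as DR1 (0.0396%) and DR4 (0.0152%). Aligned over their length, the *Cyp2c38* and *Cyp2c70* promoters were 48.1% identical, against 70.8% for *Cyp2c38* and *Cyp2c29* and 86.6% for *Cyp2c37* and *Cyp2c50*. These matches describe letters in a window and were not set against any binding data.

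Between 9994860 and 13424776 reads per library were assigned to transcripts. Genotypes were compared by edgeR's quasi-likelihood test on counts per gene, with p-values adjusted over the 12524 genes with enough reads, and a gene was called at an adjusted p under 0.05 with a fold change over 1.5. *Sirt7* itself was at 55.2, 45.5 and 47.3 CPM (reads scaled to library size by TMM) in the WT libraries and 28.6, 41.7 and 40.8 CPM in the KO libraries, and its full-length isoform, examined after these values were seen, held 429, 381 and 408 reads in WT and 124, 135 and 77.5 in KO. By both measures every KO library lay below every WT library. Its summed TPM ran the other way, at 34.4, 28.3 and 27.3 in WT and 34.7, 49.9 and 68.0 in KO, so every KO library lay above every WT library on that length-normalised scale. The exons removed in this line are not given in the sources used here. Hepatocyte markers summed to between 85752 and 96908 CPM in all 6 libraries. The sums were 85752, 87638 and 85918 CPM in WT and 87870, 96908 and 91981 CPM in KO, without overlap, and none of the 8 markers was called by edgeR, 4 of them being above 0 in log2 fold change and 4 below. Kupffer cell markers (78.3 to 216 CPM summed, 8 of 8 tested) and those of sinusoidal endothelium (82.6 to 121, 7 of 7), stellate cells (142 to 224, 8 of 8), cholangiocytes (47.3 to 72.7, 4 of 6), lymphocytes (4.13 to 10.7, 3 of 8) and intestinal epithelium (208 to 500, 3 of 6) spanned ranges in which the genotypes overlapped, and edgeR called none of them. At an unadjusted p under 0.05 none of these markers passed in edgeR, limma-voom called none, and DESeq2 with length offsets called 1, *Stab1*, lower in KO.

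Some libraries stood apart. KO replicate 1 had Spearman correlations across genes of 0.955 and 0.961 with WT replicates 2 and 3, above those of 0.950 and 0.952 with KO replicates 2 and 3, which had 0.973 with each other. Without KO replicate 1 edgeR called 252 genes in place of 1. KO replicate 3 held transcripts of kidney tubule cells, with 209 reads of *Kap*, 101 of *Slc34a1*, 40 of *Umod*, 31 of *Slc22a12*, 12 of *Slc12a1* and 3 of *Aqp2*, and its summed level was 38.1 CPM against at most 0.148 CPM in the other libraries. *Cyp2c44* is also known from kidney. WT replicate 1 held 269 CPM of female-biased liver transcripts against 14.3 to 41.6 CPM in the other libraries, led by *Cyp2b9* at 154 CPM, and was lowest in male-biased transcripts. The main results are also given without these libraries, and the part of the extra transcripts in them was not tested.

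*Cyp2c70* was higher and *Cyp2c38* lower in every KO liver than in any WT liver, and edgeR called neither. The more abundant *Cyp2c29*, *Cyp2c50*, *Cyp2c37*, *Cyp2c54* and *Cyp2c44* overlapped between genotypes, while *Cyp2c38* was a minor part of the family. None of the 10 members passed edgeR's test after adjustment over all genes, a call that 0.00798% of the tested genes reached. At an unadjusted p under 0.05 there were 2 members, 1 higher and 1 lower, against 11.3% of all tested genes (6.54% higher and 4.78% lower). DESeq2 called 2 members both with length offsets, where 1.81% of genes were called, and without them, where 2.11% were, and limma-voom called none. The log2 fold change was above 0 for 8 of 10 members (7 of 10 with total counts as the scaling), against 49.3% of all tested genes, and its median was 0.42 over the members and -0.01 over all tested genes. The genotypes did not overlap for 2 of 10 members, a share near the 16.8% of all tested genes (8.74% higher and 8.09% lower in KO). With WT replicate 1 and KO replicate 3 both left out, an alternative added after the data were seen, 0 members were called, 3 had an unadjusted p under 0.05 and the median was 0.30. Without KO replicate 1 there were 0 called, 5 higher and 1 lower at an unadjusted p under 0.05, and a median of 0.57. In that fit edgeR called 252 of all genes, against 1 with all libraries. The 11.3% comes from all libraries, and no such share was computed with libraries left out.

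**Figure D1:**
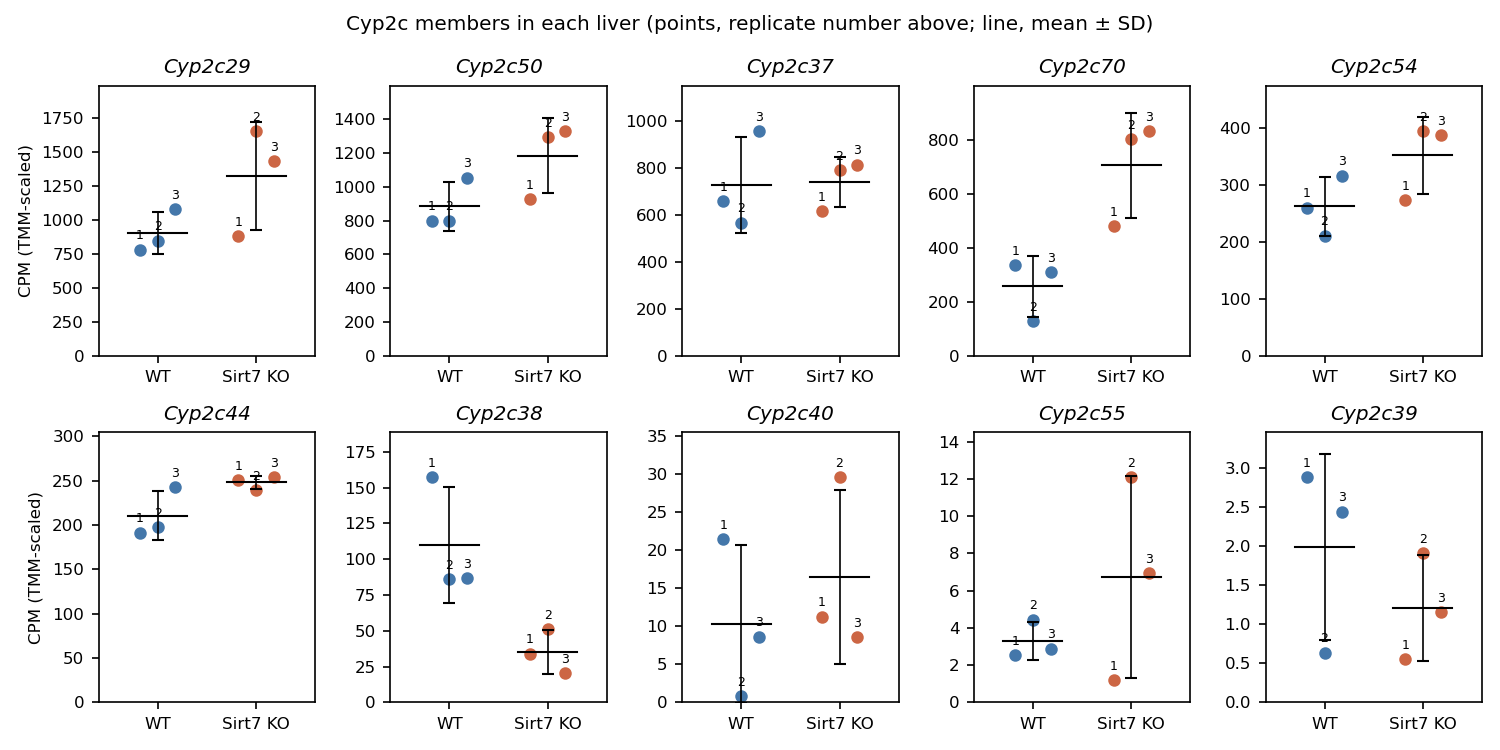
Level of each of the 10 members in each library, in TMM-scaled CPM (linear axis from 0, a separate scale per gene); points are single livers with their replicate number, horizontal lines the mean and vertical bars ± SD (n = 3 per genotype). For Cyp2c70 the KO livers (480 to 832 CPM) sit above the WT livers (129 to 336 CPM), for Cyp2c38 they sit below (20.5 to 51.0 against 86.2 to 157 CPM), and the genotypes overlap for the other 8.

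*Cyp2c70*, the hydroxylase that makes muricholic acids from other bile acids (ENSMUSG00000060613.10, chr19:40153353-40187333, minus strand), was at 336, 129 and 309 CPM in the WT libraries and 480, 800 and 832 CPM in the KO libraries. All KO values lay above all WT values, with WT replicate 2 lowest. The means were 258 ± 112 CPM (SD, n = 3) in WT and 704 ± 195 CPM (SD, n = 3) in KO, a 2.73-fold difference by the fit. Its log2 fold change was 1.45 (SE 0.36), with an unadjusted p of 0.0028 and an adjusted p of 0.19 from edgeR, and the two-sided exact permutation test gave p = 0.1, the smallest that 3 against 3 allow. DESeq2 with length offsets gave 1.47 and an adjusted p of 0.0018. Without KO replicate 3 edgeR gave 1.32, without WT replicate 1 it gave 1.68, and without both 1.55. The adjusted p over all alternatives ranged from 1.5e-10 to 0.49. Its low end came from edgeR with no filter on low counts, where 633 of all genes were called. With single libraries left out the adjusted p from edgeR was 0.055 to 0.48.

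*Cyp2c38*, an arachidonic acid epoxygenase (ENSMUSG00000032808.2, chr19:39389556-39463075, minus strand), was at 157, 86.2 and 86.5 CPM in WT and 34.1, 51.0 and 20.5 CPM in KO. The highest KO library stayed below the lowest WT library, and WT replicate 1 was the highest of all. The means were 110 ± 40.8 CPM (SD, n = 3) and 35.2 ± 15.3 CPM (SD, n = 3), so that WT was 3.13-fold above KO by the fit. edgeR gave a log2 fold change of -1.64 (SE 0.35, unadjusted p = 0.0011, adjusted p = 0.15), and the exact permutation test again gave p = 0.1. In DESeq2 with length offsets it was -1.62 with an adjusted p of 0.00046. The difference was -1.30 without WT replicate 1, -1.37 without KO replicate 3 and -1.03 without both. The adjusted p over all alternatives ranged from 5.1e-14, again from edgeR with no filter on low counts, to 0.39. With single libraries left out the adjusted p from edgeR was 0.096 to 0.36.

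The close relative of *Cyp2c38*, *Cyp2c39*, which also makes arachidonic acid epoxides, was scarce. It was assigned 34, 7 and 33 reads in WT and 6, 18 and 12 in KO, so its log2 fold change of -0.73 (SE 0.65, adjusted p = 0.72 from edgeR) rests on few reads and ranged from -1.22 to -0.38 with single libraries left out. Salmon divides reads that fit both genes between them. With the reads of *Cyp2c38* and *Cyp2c39* added together, a sum that does not depend on that division, the level was 160, 86.8 and 89.0 CPM in WT and 34.6, 52.9 and 21.7 CPM in KO. The sum gave a log2 fold change of -1.62 (SE 0.35, adjusted p = 0.15 from edgeR), close to *Cyp2c38* alone, with every KO library below every WT library.

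*Cyp2c29*, an abundant arachidonic acid epoxygenase that phenobarbital is known to induce, was at 782, 849 and 1079 CPM in WT and 882, 1655 and 1431 CPM in KO. KO replicate 1 lay within the WT range and the other KO libraries above it. Its log2 fold change was 0.55 (SE 0.25, unadjusted p = 0.052, adjusted p = 0.45 from edgeR). The means were 903 ± 156 and 1323 ± 398 CPM (SD, n = 3 each), and leaving out KO replicate 1 moved the log2 fold change to 0.77, with an adjusted p of 0.073. It was 0.45 without WT replicate 1, 0.49 without KO replicate 3 and 0.39 without both.

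*Cyp2c37*, *Cyp2c50* and *Cyp2c54* form a trio of close copies that hydroxylate or epoxidise arachidonic acid. *Cyp2c50* was at 799, 799 and 1053 CPM in WT and 927, 1292 and 1329 CPM in KO, with a log2 fold change of 0.42 (SE 0.20, adjusted p = 0.47 from edgeR). *Cyp2c54* was at 260, 212 and 317 CPM in WT and 274, 396 and 388 CPM in KO, also with 0.42 (SE 0.20, adjusted p = 0.48). In both genes KO replicate 1 overlapped the WT livers and KO replicates 2 and 3 lay above them. *Cyp2c37* was at 659, 568 and 957 CPM in WT and 616, 791 and 813 CPM in KO, and its log2 fold change of 0.02 (SE 0.22, adjusted p = 0.98) changed sign with the scaling. The summed reads of the trio gave 1874 ± 398 CPM in WT and 2276 ± 398 CPM in KO (SD, n = 3 each), a log2 fold change of 0.28 (SE 0.21, adjusted p = 0.68 from edgeR) with overlapping libraries. With WT replicate 1 and KO replicate 3 both left out, *Cyp2c50* was at 0.26, *Cyp2c54* at 0.34 and the trio at 0.13, and without KO replicate 1 *Cyp2c50* was at 0.57 and *Cyp2c54* at 0.58.

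*Cyp2c44*, an epoxygenase listed in this annotation as *Cyp2c23* and matched by its RefSeq synonym, lies 3.82 Mb from the main cluster at chr19:44005022-44029208 on the minus strand. Its level was 191, 198 and 242 CPM in WT and 250.6, 239 and 253.5 CPM in KO, where WT replicate 3 lay just inside the KO range. It had the smallest standard error of the members, with a log2 fold change of 0.24 (SE 0.15, adjusted p = 0.59 from edgeR). Leaving out KO replicate 3, the library with kidney transcripts, gave 0.22.

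The remaining members were scarce. *Cyp2c55*, a hydroxylase best known from the intestine, was assigned 30, 49 and 39 reads in WT and 13, 114 and 72 in KO, so KO replicate 1 was the lowest and KO replicate 2 the highest of all libraries (log2 fold change 1.03, SE 0.65, adjusted p = 0.60 from edgeR). That value went to 0.30 without KO replicate 2, to 1.53 without KO replicate 1 and to 0.50 in limma-voom. *Cyp2c40*, an arachidonic acid hydroxylase, was assigned 253, 9 and 117 reads in WT and 123, 279 and 89 in KO, so the WT libraries alone ran from 9 to 253 reads (log2 fold change 0.67, SE 0.82, adjusted p = 0.81). Its log2 fold change went from -0.054 without KO replicate 2 to 1.76 without WT replicate 1. *Cyp2c69*, a close copy of *Cyp2c40* that is not among the 10, was likewise high in WT replicate 1 (6.44 CPM) and KO replicate 2 (12.7 CPM) and at most 2.07 CPM elsewhere.

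The other *Cyp2c* genes include *Cyp2c67* and *Cyp2c68*, which were well expressed at 282 ± 33.5 and 283 ± 61.6 CPM in WT and 308 ± 47.2 and 229 ± 58.4 CPM in KO (SD, n = 3 each). Their log2 fold changes were 0.13 (SE 0.17, adjusted p = 0.83) and -0.31 (SE 0.22, adjusted p = 0.66), both from edgeR. *Cyp2c69* had 0.81 (SE 1.07, adjusted p = 0.83). Together with *Cyp2c40*, whose words they share, these genes summed to 578 ± 108 CPM in WT and 558 ± 99.5 CPM in KO, a log2 fold change of -0.05 (SE 0.20, adjusted p = 0.95 from edgeR). *Cyp2c65* and *Cyp2c66* were listed at 0 reads in every library, and the pseudogenes *Cyp2c52-ps*, *Cyp2c53-ps* and *Cyp2c73-ps* had at most 22 reads and were not tested.

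**Figure D2:**
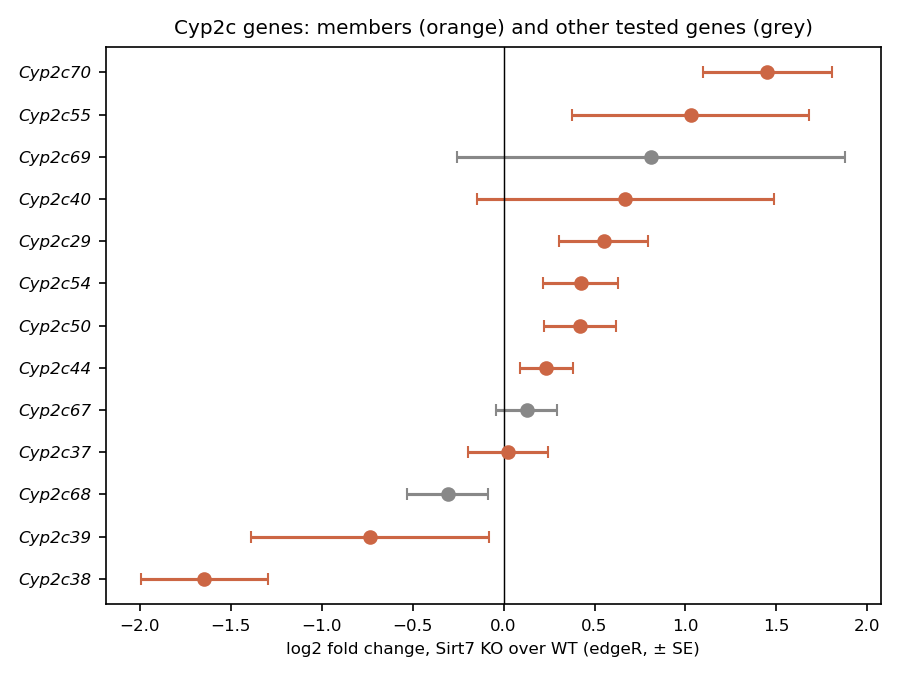
Log2 fold change of Sirt7 KO over WT from edgeR (x axis) for the 10 members (orange) and the 3 other tested Cyp2c genes (grey), ordered by value; points are estimates and bars ± 1 SE. Cyp2c70 (1.45) and Cyp2c38 (-1.64) stand at the ends, and no gene was called.

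Levels of different genes were compared per length, by the deposited TPM summed over the transcripts of each gene. *Cyp2c50*, *Cyp2c29* and *Cyp2c37* led in WT, with medians of 485, 458 and 376 TPM. The ranges of *Cyp2c50* and *Cyp2c29* overlapped, as did those of *Cyp2c29* and *Cyp2c37*, although *Cyp2c29* exceeded *Cyp2c37* in 3 of 3 libraries. *Cyp2c70* followed at a median of 187 TPM, overlapping *Cyp2c54* at 152, and then came *Cyp2c44* at 104, *Cyp2c38* at 27.3, *Cyp2c40* at 5.62, *Cyp2c55* at 1.37 and *Cyp2c39* at 1.29 TPM. In KO the order ran *Cyp2c29* at a median of 779 TPM, *Cyp2c50* at 721, *Cyp2c70* at 482, *Cyp2c37* at 415, *Cyp2c54* at 211, *Cyp2c44* at 122, *Cyp2c38* at 10.1, *Cyp2c40* at 7.98, *Cyp2c55* at 3.32 and *Cyp2c39* at 0.593 TPM. Thus *Cyp2c70* stood below *Cyp2c37* in every WT library, and above it in 2 of 3 KO libraries with overlapping ranges.

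The 10 members together made up 1868, 1468 and 2190 TPM in WT and 1792, 2886 and 2828 TPM in KO, so KO replicate 1 lay within the WT range. Within this pool *Cyp2c70* took 11.8%, 5.0% and 8.54% in WT and 15.7%, 16.7% and 17.7% in KO. *Cyp2c38* took 2.88%, 1.78% and 1.25% in WT and 0.562%, 0.558% and 0.231% in KO. For both genes the shares of the genotypes did not overlap. The share of *Cyp2c37* was 20.1%, 19.5% and 22.9% in WT and 16.9%, 14.4% and 15.3% in KO, again without overlap, although its own level overlapped between genotypes. *Cyp2c29* held 27% ± 2.76 in WT and 27.8% ± 3.02 in KO, *Cyp2c50* 27.5% ± 1.78 and 26.3% ± 1.16, and *Cyp2c54* 7.80% ± 0.344 and 7.52% ± 0.173 (SD, n = 3 each). Shares of a pool are not independent of each other, and no test was made on them.

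**Figure D3:**
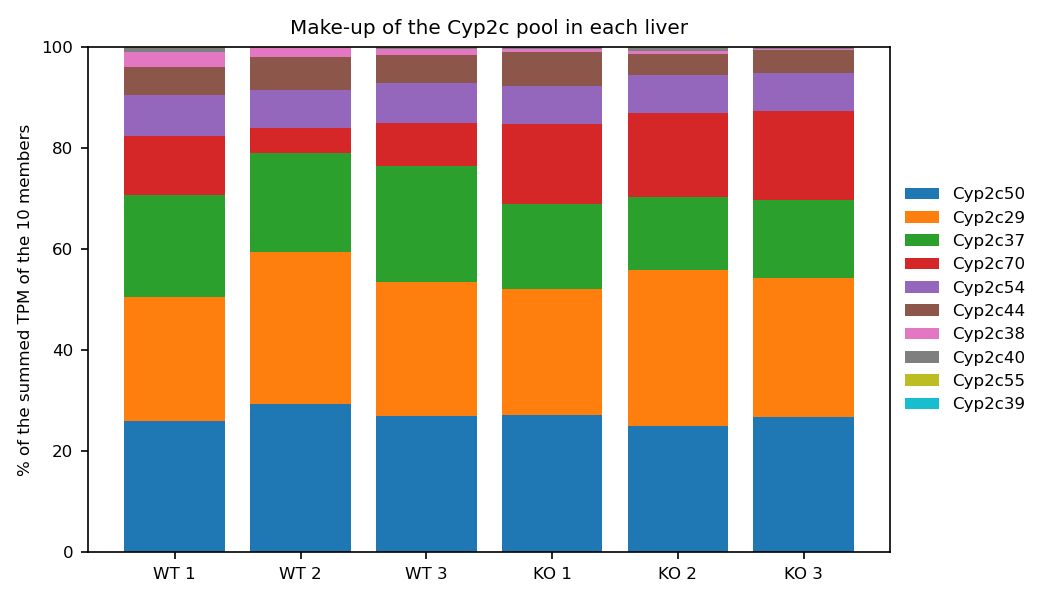
Make-up of the summed TPM of the 10 members in each library (y axis, percent of the pool; each bar is 1 liver and each colour 1 gene, stacked to 100%). The red band of Cyp2c70 is 5.0 to 11.8% in WT and 15.7 to 17.7% in KO, while the bands of Cyp2c50 and Cyp2c29 hold similar shares in all 6 livers.

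Ratios between members within a library do not depend on how libraries are scaled to each other. The TPM of *Cyp2c70* over that of *Cyp2c38* was 4.08, 2.81 and 6.85 in WT and 28.0, 30.0 and 76.8 in KO. The ratio was thus over 4 times higher in the lowest KO library than in the highest WT library. Both genes already differed without overlap, in opposite directions, so the separation of their ratio follows from their levels and is no further support. *Cyp2c37* over *Cyp2c54* was 2.47, 2.62 and 2.95 in WT and 2.20, 1.95 and 2.04 in KO, and *Cyp2c54* over *Cyp2c50* ranged from 0.253 to 0.314 in WT and from 0.278 to 0.295 in KO.

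*Cyp2c37*, *Cyp2c38*, *Cyp2c39*, *Cyp2c54* and *Cyp2c55* have a single transcript here, and in *Cyp2c29* the main coding isoform held 99.9% ± 0.0423 of the TPM in WT and 99.9% ± 0.0609 in KO (SD, n = 3 each). *Cyp2c50* was divided between an isoform of 8 exons (ENSMUST00000068094.12), with 53.7% ± 3.25 of its TPM in WT and 52.6% ± 4.93 in KO, and the isoform of 9 exons (ENSMUST00000080171.2) that codes for the stretch printed above, with 42.0% ± 3.09 and 44.4% ± 4.52 (SD, n = 3 each). A retained intron form took 4.30% ± 0.395 in WT and 3.04% ± 1.49 in KO. The second coding isoform of *Cyp2c44* (ENSMUST00000211830.1) held 2.57%, 7.57% and 5.52% in WT and 4.75%, 12.0% and 11.9% in KO, with overlap. In *Cyp2c70* a retained intron transcript held 8.99% ± 1.46 of the TPM in WT and 9.69% ± 2.89 in KO, and the main coding isoform held 90.4% ± 1.80 and 88.9% ± 3.42 (SD, n = 3 each). The main coding isoform of *Cyp2c40* held 71.8%, 0% and 74.4% of its TPM in WT and 58.7%, 82.4% and 74.2% in KO, and the 0% belongs to WT replicate 2, where the gene had 9 reads.

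Along chromosome 19, the 9 members other than *Cyp2c44* lie within 1.18 Mb. *Cyp2c70* and *Cyp2c38* are both on the minus strand, *Cyp2c70* at the far end of the cluster beside *Cyp2c50* and *Cyp2c54*, and *Cyp2c38* between *Cyp2c29* and *Cyp2c39*. Signs were mixed between neighbours. Of 12 tested genes outside the family within 1 Mb of the cluster, 4 had a log2 fold change above 0 and 8 below, with a median of -0.05 and none called by edgeR. At an unadjusted p under 0.05 there was 1, *Slc35g1*, named after its value was seen, with 28.1 ± 0.877 CPM in WT and 17.1 ± 2.52 CPM in KO (SD, n = 3 each).

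**Figure D4:**
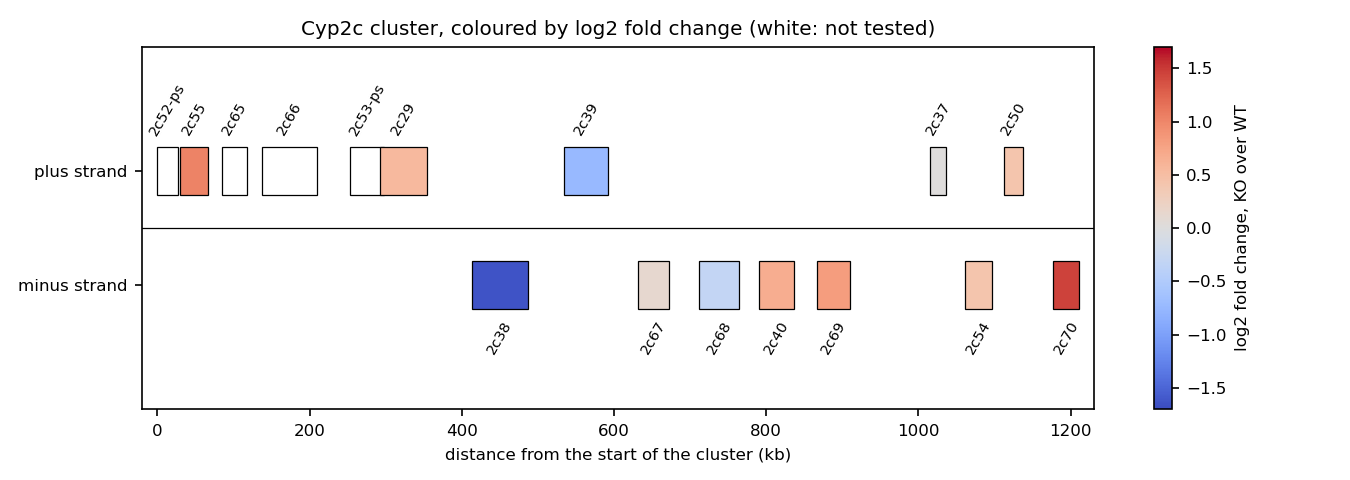
Map of the Cyp2c cluster to scale, with distance from its start in kb (x axis) and genes on the plus strand above and the minus strand below the line; colour gives the log2 fold change of KO over WT from edgeR and white genes were not tested. Cyp2c70 (red, 1.45) lies at the right end and Cyp2c38 (blue, -1.64) in the left part, with mixed signs between them.

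Genes of electron transfer and heme supply to P450s were compared next, from a list of 13 genes, all tested. Of these, 7 were above 0 and 6 below in log2 fold change (median 0.02), 0 were called by edgeR, and 1 higher and 2 lower had an unadjusted p under 0.05. For comparison, 49.3% of all tested genes were above 0, and 6.54% were higher and 4.78% lower at that p. These edgeR shares apply to each list that follows where all libraries were used. For fits with libraries left out they were not computed. All lists were chosen with earlier results of these data known, which limits such comparisons. With total counts as the scaling the split was 4 above and 9 below. *Alas1*, the rate-limiting enzyme of heme synthesis, was at 647, 1070 and 1434 CPM in WT and 274, 400 and 521 CPM in KO. Every KO library lay below every WT library, with a log2 fold change of -1.40 (SE 0.32, adjusted p = 0.17 from edgeR). *Por*, the electron donor, was at 608, 697 and 765 CPM in WT and 348, 559 and 540 CPM in KO, also without overlap (log2 fold change -0.52, SE 0.21, adjusted p = 0.39). *Cyb5r3*, which reduces cytochrome b5, was at 284, 403 and 370 CPM in WT and 411, 728 and 663 CPM in KO. Its KO libraries lay above all WT libraries (log2 fold change 0.77, SE 0.24, adjusted p = 0.26 from edgeR). In the list the genotypes did not overlap for 2 genes higher and 2 lower in KO, against 8.74% and 8.09% of all tested genes. *Cyb5a*, cytochrome b5 itself and the most abundant of the list, had 1457 ± 226 CPM in WT and 1379 ± 68.4 CPM in KO (SD, n = 3 each). DESeq2 called *Alas1* lower with and without length offsets, and *Cyb5r3* higher without them, and limma-voom called none. Without KO replicate 1, where edgeR called 252 of all genes, it called 1 of this list.

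On the side of the substrate, 9 of 9 genes of arachidonic acid supply were tested, 6 with a log2 fold change above 0 and 3 below (median 0.08, which was -0.01 with total counts), and no tool called any. Without WT replicate 1 the split turned to 4 above and 5 below (median -0.13). At an unadjusted p under 0.05 were the desaturase *Fads1* at 202 ± 43.3 CPM in WT and 320 ± 81.5 CPM in KO (log2 fold change 0.66), the acyl-CoA synthetase *Acsl4* at 5.30 ± 1.9 and 9.23 ± 1.05 CPM (0.79), and, lower, the elongase *Elovl2* at 256 ± 48.1 and 189 ± 30.8 CPM (-0.44; SD, n = 3 each). The most abundant gene, the desaturase *Fads2*, was at 307 ± 117 and 318 ± 43.7 CPM. Of 8 genes of epoxide formation and removal outside the family, 5 were tested, 2 above 0 and 3 below with a median of -0.47. edgeR called none, and 2 were lower at an unadjusted p under 0.05.

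*Ephx1*, the microsomal epoxide hydrolase, was at 462, 737 and 553 CPM in WT and 348, 293 and 339 CPM in KO. Its KO libraries lay below all WT libraries, with a log2 fold change of -0.84 (SE 0.19, adjusted p = 0.17 from edgeR), and DESeq2 called it lower with and without length offsets. *Ephx2*, the soluble hydrolase that opens the epoxides of arachidonic acid, was at 1219, 2326 and 1745 CPM in WT and 1414, 1143 and 1257 CPM in KO, with overlap (log2 fold change -0.47, SE 0.24, adjusted p = 0.50). *Cyp2j9*, an epoxygenase of another subfamily, was at 17.5 ± 2.55 CPM in WT and 9.18 ± 1.2 CPM in KO (SD, n = 3 each; log2 fold change -0.93, adjusted p = 0.15), and DESeq2 without length offsets called it lower. limma-voom called none of the list.

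Bile acid synthesis, the pathway to which *Cyp2c70* adds its step, held 14 tested genes of 14, of which 13 had a log2 fold change above 0 and 1 below. The median was 0.34, edgeR called 0, and 3 were higher at an unadjusted p under 0.05. Without WT replicate 1 there were 11 above and 3 below, with a median of 0.19. *Cyp7b1*, the hydroxylase of the alternative pathway, was at 90.9, 102 and 123 CPM in WT and 206, 206 and 304 CPM in KO, without overlap (log2 fold change 1.18, SE 0.20, adjusted p = 0.10 from edgeR). *Hsd3b7*, which acts on the sterol ring, was at 517 ± 37.1 and 735 ± 65.0 CPM (0.51), and *Amacr*, which prepares the side chain for shortening, at 176 ± 23.3 and 233 ± 20.1 CPM (0.41; SD, n = 3 each). *Scp2*, the most abundant, had 3268 ± 468 CPM in WT and 3603 ± 190 CPM in KO. DESeq2 called *Cyp7b1* higher with and without length offsets, and limma-voom called none. With KO replicate 1 left out, edgeR called 1 of the list, and 6 were higher at an unadjusted p under 0.05.

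Transcription factors that govern hepatic P450 genes leaned the other way from most members. Of 24 listed, 23 were tested, 5 with a log2 fold change above 0 and 18 below. The median was -0.29, 2 were higher and 8 lower at an unadjusted p under 0.05, against 6.54% and 4.78% of all tested genes, and edgeR called none. Without WT replicate 1 and KO replicate 3 the split was again 5 and 18, with a median of -0.31. *Nr1i3* (CAR), the receptor behind phenobarbital induction, was at 452, 630 and 713 CPM in WT and 310, 288 and 326 CPM in KO. All KO libraries lay below WT replicate 1, the lowest of the WT libraries, and the log2 fold change was -0.96 (SE 0.19, adjusted p = 0.14 from edgeR). *Nr1i2* (PXR), the receptor for many drugs, was at 28.5, 30.4 and 35.5 CPM in WT and 17.95, 24.2 and 27.3 CPM in KO (log2 fold change -0.44, adjusted p = 0.41). *Rxra*, their shared partner, was at 129, 129 and 127 CPM in WT and 100, 93.5 and 99.3 CPM in KO (log2 fold change -0.40, adjusted p = 0.28). *Hnf4a*, for whose motif *Cyp2c70* holds a match, was at 360, 232 and 264 CPM in WT and 235, 172 and 225 CPM in KO, with overlap (log2 fold change -0.44, adjusted p = 0.46).

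Further regulators at an unadjusted p under 0.05 were, lower in KO, the fatty acid receptor *Ppara* (log2 fold change -0.57), the clock-controlled factors *Tef* (-0.88) and *Dbp* (-1.21), *Cebpb* (-1.60) and *Onecut1* (-0.81). Higher in KO were *Nr0b2*, the bile acid-induced repressor SHP, at 56.1 ± 14.7 CPM in WT and 92.2 ± 16.0 CPM in KO (SD, n = 3 each; log2 fold change 0.72), and *Bcl6*, a repressor of female-biased genes, at 6.33 ± 3.37 and 23.1 ± 10.2 CPM (1.88). The genotypes did not overlap for *Tef*, *Onecut1*, *Nr0b2* and *Bcl6*. DESeq2 with length offsets called *Nr1i3* and *Bcl6*, without offsets also *Tef*, and limma-voom called none. With KO replicate 1 left out, edgeR called 1 of the listed factors.

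**Figure D5:**
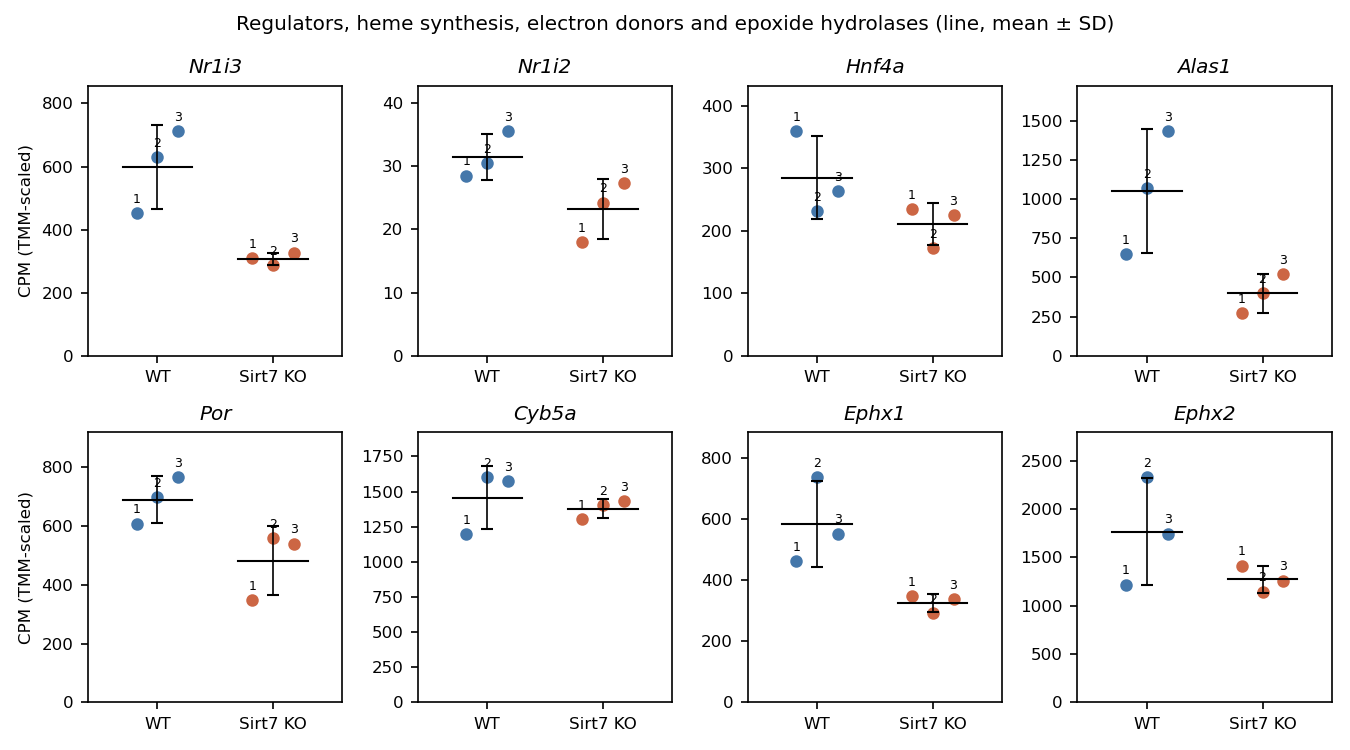
Levels of 3 regulators (Nr1i3, Nr1i2, Hnf4a), the first enzyme of heme synthesis (Alas1), 2 electron donors (Por, Cyb5a) and 2 epoxide hydrolases (Ephx1, Ephx2) in each library, in TMM-scaled CPM (linear axes from 0); points are single livers with their replicate number, lines the mean and bars ± SD (n = 3 per genotype). KO livers lie below WT livers without overlap for Nr1i3, Nr1i2, Alas1, Por and Ephx1, as for 8.09% of all tested genes, the genotypes overlap for Hnf4a, Cyb5a and Ephx2, and no gene was called by edgeR.

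Known targets of CAR and PXR outside the family were set beside them. Of 11, 10 were tested, 4 above 0 and 6 below with a median of -0.09, and no tool called any. *Slco1a4*, a carrier, was the only one with an unadjusted p under 0.05 (63.9 ± 10.8 CPM in WT, 45.2 ± 11.0 CPM in KO, log2 fold change -0.50). *Cyp3a11*, the most abundant, was at 6596 ± 1699 and 6002 ± 748 CPM (SD, n = 3 each). Among hepatocyte genes of the pericentral zone, where many P450s are known to be highest, 10 of 11 were tested and 6 were above 0 (median 0.19). *Cyp1a2* (log2 fold change 0.89) and *Gulo* (0.74) had an unadjusted p under 0.05, KO replicate 1 lay within the WT range for both, and no tool called any of the zone with all libraries, while edgeR called 2 without KO replicate 1. With WT replicate 1 and KO replicate 3 both left out, 5 were above 0 and 5 below, with a median of 0.063. *Cyp2e1*, the most abundant, was at 9549 ± 571 CPM in WT and 8208 ± 788 CPM in KO.

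Of 13 periportal genes, all tested, 10 were above 0 (median 0.34, and 0.19 without WT replicate 1). At an unadjusted p under 0.05 were *Aldh1b1* (log2 fold change 1.35) and *Cdh1* (1.63), higher, and *Hsd17b13* (-0.90), lower, each without overlap, while *Pck1*, the most abundant, was at 3991 ± 242 CPM in WT and 3000 ± 883 CPM in KO (SD, n = 3 each). edgeR and limma-voom called none of the zone with all libraries, and edgeR called 1 without KO replicate 1. DESeq2 with length offsets called *Aldh1b1* and *Hsd17b13*, and without them also *Cdh1*. Of 10 acute phase genes, all tested, 9 were above 0 (median 0.48, and 1.03 without WT replicate 1), and *Orm1* (0.84), *Orm2* (1.7) and *Steap4* (0.88) had an unadjusted p under 0.05 without overlap. Without WT replicate 1 there were 8 at that p, and without KO replicate 1 the split was 6 above and 4 below with a median of 0.28. *Fgb*, their most abundant, was at 4467 ± 1718 and 6920 ± 1307 CPM. edgeR and limma-voom called none, and DESeq2 called these 3 with and without length offsets.

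Sex-biased liver genes are given for their range across the libraries, and their part in the values of the *Cyp2c* members was not tested. Of 16 male-biased genes, all tested, 14 were above 0 with a median log2 fold change of 1.16, and 11 were higher at an unadjusted p under 0.05. These were *Cyp4a12a* (1.30), *Ugt2b1* (0.92), *Nudt7* (1.26), *Elovl3* (1.27), *Cyp7b1* (1.18, also in the bile acid list), *Selenbp2* (3.32), *C6* (1.51), *Slco1a1* (2.08), *Susd4* (1.15), *Hsd3b5* (4.41) and *Ugt2b38* (0.77). The summed level of the list was 4602, 12639 and 14933 CPM in WT and 20483, 11628 and 15932 CPM in KO, with overlap, and its most abundant gene was *Mup20*, which also overlapped. Without WT replicate 1 there were again 14 above 0 and 11 at an unadjusted p under 0.05, with a median of 0.88. edgeR and limma-voom called none of the list with all libraries, edgeR called 4 without KO replicate 1, and DESeq2 called 8 higher with length offsets and 6 without.

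Of 19 female-biased genes 6 were tested and 6 were below 0 (median -1.71). The summed level of this list was 269, 41.6 and 27 CPM in WT and 14.3, 40.5 and 19.5 CPM in KO, with overlap. Lower at an unadjusted p under 0.05 were *Cyp2b9* (log2 fold change -3.85), *Fmo2* (-1.10) and *Slc22a27* (-2.31), and no tool called any. The values of *Cyp2b9* and *Slc22a27* rest largely on WT replicate 1. *Cyp2b9* was at 154, 12.2 and 4.07 CPM in WT and 1.28, 8.05 and 2.60 CPM in KO, and without that library its log2 fold change was -1.05 (unadjusted p = 0.19 from edgeR). *Slc22a27* was at 7.28, 1.72 and 1.48 CPM in WT and went to -1.19 (unadjusted p = 0.11), and *Fmo2* went to -0.79 (unadjusted p = 0.020). The list then had 1 above 0 and 5 below, with a median of -0.80. Of the *Cyp2c* members, *Cyp2c38* and *Cyp2c40* were also high in WT replicate 1, the library with the most female-biased transcripts, at 157 and 21.4 CPM. *Cyp2c40* was higher still in KO replicate 2, at 29.6 CPM, where the female-biased sum was 40.5 CPM. *Cyp2c38* was at 86.2 and 86.5 CPM in WT replicates 2 and 3 and at 20.5 to 51.0 CPM in KO. Its log2 fold change went from -1.64 to -1.30 without WT replicate 1. *Cyp2c70* in WT replicate 1, at 336 CPM, was the highest of the WT values. Whether the female-biased transcripts bear on these values was not tested.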

How the data were processed

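Liver RNA of 3 WT and 3 *Sirt7* KO mice was sequenced from single ends, and genotypes and replicate numbers were taken from the labels. Per the labels, the authors trimmed reads with Trim Galore 0.6.5 and quantified them with Salmon 1.2.1 on the mouse transcriptome of GRCm38, and replicates were not pooled. The deposited values are an estimated count of reads for each transcript, with no normalization, and a TPM, which Salmon scales to effective length and to the library total. The annotation release is not given in the sources used here. Estimated counts were added up by gene with GENCODE M21 (139172 of 140992 transcripts matched with the same version, 619 with another, and the 1201 without a gene were left out) and rounded. Shared reads are divided by Salmon, which bears on close paralogs, so genes linked by sharing at least 20% of words of 31 bases were also tested as sums. The gene linkage was by single linkage within the *Cyp2c* family.

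Genes were tested with edgeR 4.0.16 in R 4.3.3 (quasi-likelihood test, TMM, filterByExpr with minimum count 10, Benjamini-Hochberg adjustment over 12524 genes), which was checked on simulated data. Single genes were also compared by a two-sided exact permutation test of log2(CPM + 0.5). DESeq2 1.42.0 with and without length offsets, limma-voom (limma 3.58.1), other scalings, filters, the replicate number as a block, and leaving out libraries were alternatives. Promoters and the matching of *Cyp2c44* used RefSeq. Depth leaves genes with few reads uncertain, and p-values measure the spread between these livers. Libraries of a genotype differed by more than sampling noise, with a mean chi-square of at least 16.9 per gene. The members and all gene lists were chosen with earlier results of these data known. Named genes are the members, the other *Cyp2c* genes, *Sirt7*, and in each list those with an unadjusted p under 0.05, the most abundant, and *Nr1i2*, *Nr1i3*, *Hnf4a*, *Por*, *Ephx1* and *Ephx2*. Cell type markers are named only where a result turns on them.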

Additional observations from a re-analysis of the deposited data

How the results depend on the processing

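edgeR called 1 of all genes, against 240 in DESeq2 with length offsets, 257 without, 2 in limma-voom, 2 with total counts as the scaling, 2 with length offsets in edgeR, 633 with no filter on low counts and 0 to 252 when single libraries were left out. The 252 came without *Sirt7* KO replicate 1. With WT replicate 1 and *Sirt7* KO replicate 3 both left out, 0 genes were called. Members called were 0 in edgeR, 2 in DESeq2 with and 2 without length offsets, 2 with no filter, and 0 to 0 when single libraries were left out. Members at an unadjusted p under 0.05 were 2, against 5 in DESeq2 without length offsets, 7 with no filter and 2 to 6 with single libraries left out, 5 without WT replicate 3 and 6 without *Sirt7* KO replicate 1. With the replicate block 41 genes were called, 0 of them members, and 4 members had an unadjusted p under 0.05. The share of all genes at that p was computed only for the main edgeR fit. The member counts of the other fits therefore have no such share beside them. The deviations of same-numbered livers from their group means had correlations of 0.07, 0.08 and -0.04. Those of livers with different numbers ran from -0.10 to 0.05. Correlations this small cannot settle whether the replicate numbers pair the livers.

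The median log2 fold change of the members was 0.24 to 0.57 with single libraries left out and 0.31 to 0.43 otherwise. Total counts moved the median of all genes from -0.01 to -0.11 and turned *Cyp2c37* to -0.087, which is above that median. *Cyp2c37* ranged from -0.13 to 0.28 with single libraries left out and was -0.12 without the pair, and its values were -0.05 without WT replicate 1, -0.13 without WT replicate 2, -0.03 without *Sirt7* KO replicate 2 and -0.05 without *Sirt7* KO replicate 3. *Cyp2c40* ranged from -0.054, without *Sirt7* KO replicate 2, to 1.76, and was 2.07 without the pair. *Cyp2c38* kept its sign throughout, from -2.01 to -1.30 with single libraries left out, and so did *Cyp2c70*, from 1.13 to 1.68. The sum of *Cyp2c38* and *Cyp2c39* was called at -1.59 in DESeq2 with length offsets, -1.61 without and -1.61 with no filter, and ranged from -1.99 to -1.28 with single libraries left out. The sum of *Cyp2c40*, *Cyp2c67*, *Cyp2c68* and *Cyp2c69* ranged from -0.17 to 0.10 and was 0.09 without the pair, and that of *Cyp2c37*, *Cyp2c50* and *Cyp2c54* from 0.17 to 0.47. The causes of these shifts were not tested. *Cyp2c39* could not be tested with a mean of at least 50 reads required. Linking genes at 5% of shared words joined *Cyp2c38* and *Cyp2c39* to *Cyp2c29*, and linking at 50% left only the *Cyp2c40* group. A pseudocount of 5 CPM changed no sign. Depth limits *Cyp2c39*, *Cyp2c40* and *Cyp2c55*, which had under 300 reads in each library.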
